A study of Mus musculus with 6 samples.

Results

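Parathyroid hormone-related protein, its receptor, the stanniocalcins and the genes of cellular calcium entry and sensing were examined in sorted thyroid tumor cells of 2 genotypes. The set holds 7 of the 35027 genes of the expression table, Pthlh, Pth1r, Stc1, Stc2, Trpv6, Casr and S100g, chosen by symbol. Pthlh, Trpv6 and Stc2 entered the set because they were already known to differ between the genotypes in these libraries, so their values are a description and carry no test.

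Cells were sorted from mouse thyroid tumors by the red fluorescent reporter Kate, and their total RNA was sequenced. Mice of both groups carried a Cre active in thyroid follicular cells, the RIK allele (a rtTA transactivator followed by Kate) and a tetO transgene for YAP1 S127A, a nuclear mutant of the Hippo pathway coactivator that is made only in the presence of doxycycline (dox). YAP mice had these alleles alone, while BRAFYAP mice also carried LSL-Braf V600E, which Cre switches on at the endogenous Braf gene. All mice were of mixed background and, by the labels, received dox in the chow from 4 weeks of age, and about 20000 cells were collected for each of 3 YAP libraries (replicates 1, 2 and 3) and 3 BRAFYAP libraries (replicates 1, 2 and 6). The labels give 3 pooled tumors for every YAP library but a single tumor for every BRAFYAP library, so pooling and genotype cannot be told apart. The methods of the study differ from the labels here and give 1 tumor per mouse for each replicate. For the start of dox its methods give the same age as the labels, while its results section gives a later one. The labels were followed for both.

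PTHrP, the product of Pthlh, is a secreted peptide that acts on PTH1R, the receptor it shares with parathyroid hormone, and that releases calcium from bone when tumors make it in excess. Stanniocalcins are secreted glycoproteins, first known as calcium-lowering hormones of fish, and in mammals both inhibit the PAPP-A proteases that free insulin-like growth factors (IGF) from IGFBP4. TRPV6 is a calcium-selective channel of the apical membrane of absorbing epithelia, S100G is the small cytosolic calcium-binding protein that carries the calcium entering through it, and CASR is the receptor by which parathyroid cells and C cells sense extracellular calcium.

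Levels are given in scaled reads, which are the reads recovered from the deposited values and kept on the authors' scaling between libraries. Differences are log2 fold changes of scaled reads plus 1, BRAFYAP minus YAP, from limma on the 16834 genes with a mean of at least 10 scaled reads, with Benjamini-Hochberg adjustment. In that fit 0 genes passed an adjusted p of 0.05 (0%), whereas 3404 genes (20.2%) had an unadjusted p under 0.05, and the alternatives that give other counts stand in the closing section. Depth was 26.2 to 36.9 M estimated reads per library. BRAFYAP replicate 6 stood apart, with correlations of 0.732 to 0.836 with the other libraries, against 0.833 to 0.968 among the rest. Values without it are therefore given where they matter. It was also the only BRAFYAP library with reads of Y-linked genes, which all YAP libraries held. In fits without it, sex and genotype therefore cannot be told apart. The median log2 fold change of all tested genes was -0.12, and median-ratio rescaling moved it to 0.01.

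In the BRAFYAP tumors Pthlh, Trpv6, Stc1 and S100g were higher in each library than in any YAP library, and Stc2 was lower. Of the 7 members, 5 did not overlap between groups (4 higher and 1 lower in BRAFYAP), against 28.7% of all tested genes (11.6% higher and 17.1% lower), and since 3 of these 5 members were chosen for their difference nothing was read from the count. Pth1r and Casr overlapped between the groups and were scarce in both.

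**Figure D1:**
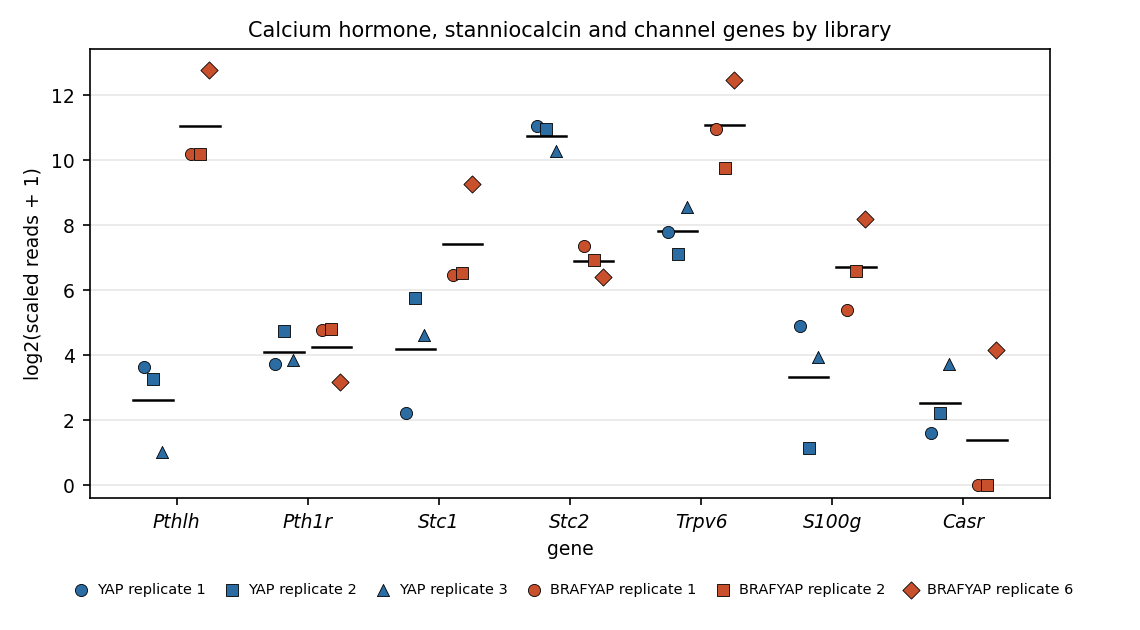
Log2(scaled reads + 1) of the 7 genes on the y axis, with a symbol for each library (YAP in blue, BRAFYAP in orange) and a bar for each group mean of 3 libraries. Pthlh, Stc1, Trpv6 and S100g of the BRAFYAP libraries sit above the YAP libraries and Stc2 below them, whereas Pth1r and Casr overlap.

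The stretches just before the annotated starts of the 3 genes picked for their difference are shown because these genes differed between the groups in opposite directions and their starts differ in composition. They are from RefSeq on GRCm38.p6, read on the minus strand that carries all 3 genes, with each CG dinucleotide in capitals, and they end at the base before the outermost GENCODE start. Pthlh is at chr6:147264184-147264263, Trpv6 at chr6:41636406-41636655 and Stc2 at chr11:31370075-31370311.
Pthlh: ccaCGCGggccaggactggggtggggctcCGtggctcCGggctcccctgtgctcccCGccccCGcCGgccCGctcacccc
Trpv6: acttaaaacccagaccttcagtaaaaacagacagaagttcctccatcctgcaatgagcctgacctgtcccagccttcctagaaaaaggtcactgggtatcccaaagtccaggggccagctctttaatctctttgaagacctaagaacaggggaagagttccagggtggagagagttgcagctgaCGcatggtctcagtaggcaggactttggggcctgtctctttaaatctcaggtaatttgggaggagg
Stc2: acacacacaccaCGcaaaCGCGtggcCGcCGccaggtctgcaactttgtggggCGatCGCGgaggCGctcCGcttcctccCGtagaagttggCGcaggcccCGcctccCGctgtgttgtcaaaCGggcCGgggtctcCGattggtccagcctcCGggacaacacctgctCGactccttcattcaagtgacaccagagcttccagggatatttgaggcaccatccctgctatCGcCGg

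Over the RefSeq window from 250 bases before to 50 bases after a start, Pthlh held 33 CG dinucleotides and Stc2 28, more than in 91.4% and 85.8% of the 32851 mouse promoters of the same length. Trpv6 held 1, and 5.43% of promoters hold fewer. The median promoter held 7. Promoters of S100g (3) and Casr (4) were also below the median, while the Pth1r starts held 5, 23 and 27. RefSeq windows were matched for 6 of the 7 genes, without Stc1.

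Both strands of these windows were searched for 6 motifs, whose matches may overlap one another. The shares of all promoters with a match were 14.7% for the TEAD site GGAATG, 7.81% for the AP-1 site TGANTCA, 1.79% for the CRE site TGACGTCA, 3.97% for the ATF4 site TGATGNAA, 3.89% for the ETS site CCGGAAGT and 13.6% for the TATA box TATAAA. S100g had 1 match, to the letters of the TATA box, which begins at the RefSeq start itself and not before it. The other windows had 0, which says only that these letters are not in these windows.

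Pthlh, the ligand gene, was nearly silent in YAP and abundant in BRAFYAP. It lies at chr6:147252101-147264183 on the minus strand (mm10, GENCODE M21). Scaled reads were 11.3, 8.56 and 1.03 in YAP replicates 1, 2 and 3, and 1173, 1152 and 6981 in BRAFYAP replicates 1, 2 and 6. The YAP libraries held few reads, whereas BRAFYAP replicates 1 and 2 were nearly equal and replicate 6 was the highest. The lowest BRAFYAP library was 102-fold above the highest YAP library. The YAP reads summed to 19, with an exact 95% Poisson interval of 11.4 to 29.7 that covers counting error only.

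Group means of Pthlh were 6.97 ± 5.32 scaled reads (SD, n = 3) in YAP and 3102 ± 3359 in BRAFYAP, a ratio of 445. The log2 fold change was 8.41 (SE 0.94), 1st of 16834 from the highest, and 7.55 without BRAFYAP replicate 6. With so few YAP reads this value depends on the pseudocount, and it was 7.02 with a pseudocount of 10. On exonic TPM, a scale per length that allows genes to be compared, Pthlh was at 0.600, 0.440 and 0.0577 in YAP and at 64.6, 65.0 and 382 in BRAFYAP. That level ranked 2531, 2490 and 405 of 34645 genes in BRAFYAP replicates 1, 2 and 6, and from 15586 to 21187 in the YAP libraries.

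Parathyroid and C cells, which lie beside and within the thyroid, were checked because several members are active there. Pth, the hormone of parathyroid cells, was at 24.7, 906 and 17.5 scaled reads in YAP and at 0, 2.35 and 5100 in BRAFYAP. Pth was absent or nearly so in BRAFYAP replicates 1 and 2, and high in YAP replicate 2 and BRAFYAP replicate 6. The part of parathyroid cells in the Pthlh levels of these libraries was not tested. Chga, a secretory granule protein of neuroendocrine cells, followed Pth, with 17.5, 1951 and 14.4 in YAP and 6.65, 4.71 and 6046 in BRAFYAP. Gcm2, the parathyroid lineage factor, was at 0 in 4 libraries, at 12.2 in YAP replicate 2 and at 1.78 in BRAFYAP replicate 6. Calca, which encodes calcitonin, was at 1133, 611 and 30.9 in YAP and at 0, 3.92 and 781 in BRAFYAP.

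Summed over the 5 parathyroid markers, exonic TPM ranged from 9.12 to 175 in YAP and from 7.35 to 839 in BRAFYAP. The 7 C-cell markers summed to 3.18 to 93.6 in YAP and to 2.61 to 339 in BRAFYAP. In both lists BRAFYAP replicate 6 was the highest library. The part of these cells in the Pthlh, Stc1, Trpv6 and S100g levels of any library was not tested. The differences of Pth and Calca did not pass the test, with log2 fold changes of -1.55 (SE 3.18, adjusted p = 0.805) and -4.16 (SE 2.48, adjusted p = 0.38). Without BRAFYAP replicate 6 they were -5.37 and -6.98.

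**Figure D2:**
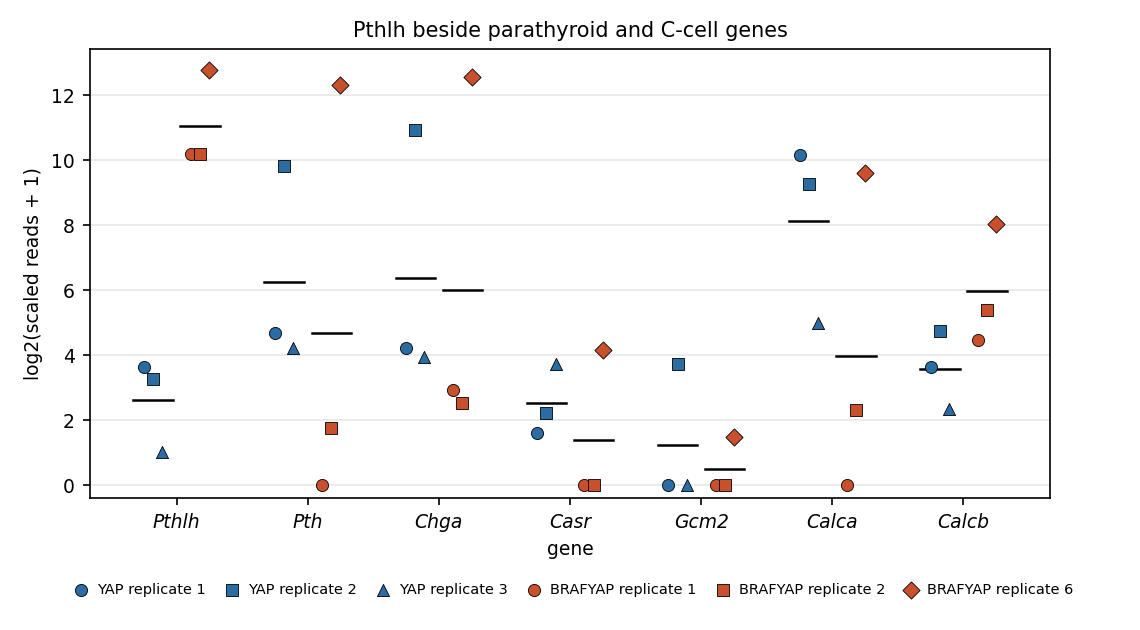
Log2(scaled reads + 1) of Pthlh and of 6 parathyroid or C-cell genes on the y axis, by library as in the plot of the 7 genes, with bars at group means. Pth, Chga and Calca are low in BRAFYAP replicates 1 and 2 (Pth 0 and 2.35 scaled reads), and Pthlh is high in every BRAFYAP library.

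Among thyroid follicular genes Pax8, a lineage factor, was present in all libraries (7225 to 14663 scaled reads, but 5189 in BRAFYAP replicate 6). Tg, the hormone precursor, was at 6658, 1279 and 16677 in YAP and at 129, 51.8 and 19641 in BRAFYAP, and Tshr, the thyrotropin receptor, was at 0 in BRAFYAP replicates 1 and 2. Of the other listed follicular markers, Slc26a4 was at 0 outside BRAFYAP replicate 6, and Duox2 was at 0 in 4 libraries. The lineage factors Nkx2-1 (159 to 741 scaled reads) and Foxe1 (24.7 to 94.1) were present in all libraries. Macrophage and other immune markers were abundant despite the sort. Their exonic TPM summed to 11749 to 40385 in YAP and to 3251 to 12637 in BRAFYAP, and 4 of the 6 tested were lower in BRAFYAP at an unadjusted p under 0.05, against 10.5% of all tested genes. The part of immune cells in the Stc2 difference was not tested. Of 6 tested epithelial markers 1 was higher and 0 lower in BRAFYAP at that threshold. Fibroblast markers gave 2 higher and 1 lower of 6, and endothelial markers 0 of 5 in either direction. Shares of all tested genes were 9.68% higher and 10.5% lower. Epcam, the higher epithelial gene, was at 541, 380 and 1228 scaled reads in YAP and at 1837, 1563 and 7013 in BRAFYAP. The part of these cell types was not tested. Fewer cells of a type and less RNA per cell cannot be told apart in these bulk libraries. Y-linked genes (Ddx3y, Eif2s3y, Kdm5d and Uty) were at 0 in BRAFYAP replicates 1 and 2 and present in BRAFYAP replicate 6 and in all YAP pools. Sex therefore also differed among these libraries, and its part was not tested. Every value without BRAFYAP replicate 6 sets libraries lacking these reads against pools that hold them.

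Pth1r, the receptor through which PTHrP acts, lies at chr9:110722085-110747145 on the minus strand, and 5285 bases of it overlap Myl3 on the other strand. Scaled reads of Pth1r were 12.3, 25.7 and 13.4 in YAP and 26.6, 26.7 and 7.99 in BRAFYAP. BRAFYAP replicate 6, which had the most Pthlh, had the least Pth1r. Means were 17.1 ± 7.42 (SD, n = 3) and 20.4 ± 10.8, and the log2 fold change of 0.14 (SE 0.71, adjusted p = 0.928) had a 95% interval from -1.52 to 1.81, wide enough to hold a rise or a fall of more than 2-fold. Its direction turned when YAP replicate 1, BRAFYAP replicate 1 or BRAFYAP replicate 2 was left out. Pth2r, the related receptor, was at 1.03, 0 and 0 in YAP and at 6.65, 6.28 and 26.6 in BRAFYAP, under the minimum for the fit.

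Of the 25 tested genes of PTH1R signaling and trafficking, 4 were higher (16%) and 2 lower (8%) in BRAFYAP at an unadjusted p under 0.05, against 9.68% and 10.5% of all tested genes. Without BRAFYAP replicate 6 the counts were 2 higher (8%) and 3 lower (12%). The median log2 fold change of the list was 0.06. Adcy3, an adenylyl cyclase, was at 31.8, 61.3 and 74.3 scaled reads in YAP and at 216, 311 and 385 in BRAFYAP, a log2 fold change of 2.47 (SE 0.45, adjusted p = 0.0821). Ramp2, a membrane partner of class B receptors, was at 8.18, 62.7 and 18.5 in YAP and at 116, 43.5 and 848 in BRAFYAP, and the groups overlapped. Chosen after their values were seen, Arrb1, which encodes an arrestin, was lower in BRAFYAP by -1.59 (SE 0.27, adjusted p = 0.076) and the cyclase Adcy7 by -2.09 (SE 0.42, adjusted p = 0.089). Sik1 and Sik2 encode salt-inducible kinases whose enzyme activity, not measured here, is held down by cAMP. Their RNA was higher by 1.17 and 1.03 on the log2 scale (adjusted p = 0.139 and 0.233).

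Genes that act after PTH1R in bone and kidney were mostly scarce or variable. Of the RANKL axis 4 of 6 genes were tested, with 0 at an unadjusted p under 0.05 in either direction. Tnfsf11, which encodes RANKL, was at 4.11, 0 and 26.8 scaled reads in YAP and at 8.86, 10.99 and 133 in BRAFYAP, and the osteoclast growth factor Csf1 was at 2918, 6724 and 5408 against 5208, 6198 and 931. Neither difference passed the test (adjusted p = 0.425 and 0.666). Of 9 tested genes of the vitamin D and FGF23 axis, 1 was higher and 1 lower (11.1% each) at an unadjusted p under 0.05. These were Pdia3 and Rxra, named after their values were seen, and not Cyp27b1 or Cyp24a1, which changed most in size. For both lists the shares of all tested genes were 9.68% higher and 10.5% lower. Cyp27b1, which activates vitamin D, was at 684, 283 and 1646 in YAP and at 18.8, 3.14 and 811 in BRAFYAP, low in BRAFYAP replicates 1 and 2 only. Cyp24a1, which inactivates it, was at 0 in all YAP libraries and at 6.65, 0 and 422 in BRAFYAP.

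In the calcitonin and CGRP family 1 of 7 tested genes was higher in BRAFYAP and 0 lower at an unadjusted p under 0.05, where all tested genes gave 9.68% and 10.5%. Without BRAFYAP replicate 6, 1 was higher and 3 were lower. The higher gene was Ramp1, the partner that makes the CGRP receptor, at 107, 577 and 294 scaled reads in YAP and at 948, 1544 and 5353 in BRAFYAP, a log2 fold change of 2.91 (SE 0.80, adjusted p = 0.126).

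The 2 stanniocalcins went opposite ways. Stc2, at chr11:31357307-31370074 on the minus strand, was at 2106, 1986 and 1229 scaled reads in YAP and at 164, 122 and 84.4 in BRAFYAP. The YAP libraries were within 1.71-fold of each other and the BRAFYAP libraries within 1.94-fold, and the lowest YAP library was 7.49-fold above the highest BRAFYAP library. Means were 1774 ± 476 (SD, n = 3) and 123 ± 39.8, which is 14.4-fold higher in YAP. The log2 fold change of -3.85 (SE 0.38) ranked 88th from the lowest and had the smallest standard error of the 6 members in the fit. It was -3.60 without BRAFYAP replicate 6.

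Stc1, at chr14:69029238-69041804 on the plus strand, shares 415 bases with the antisense gene Gm41192. Scaled reads were 3.64, 52.6 and 23.7 in YAP and 87.5, 91.1 and 614 in BRAFYAP. The groups did not overlap, but the lowest BRAFYAP library was only 1.66-fold above the highest YAP library. Means were 26.6 ± 24.6 (SD, n = 3) and 264 ± 303, a ratio of 9.92. The log2 fold change was 3.22 (SE 1.10) with a 95% interval from 0.64 to 5.81, and limma gave an adjusted p = 0.174, which did not pass. It fell to 2.30 without BRAFYAP replicate 6.

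Per exonic length Stc2 was the dominant stanniocalcin of the YAP tumors. Its exonic TPM was 34.97, 31.9 and 21.5 there against 0.0744, 1.04 and 0.512 for Stc1, ratios of 470, 30.6 and 42.1. In BRAFYAP replicates 1 and 2 the genes were nearly level, with Stc2 to Stc1 ratios of 1.52 and 1.08. In BRAFYAP replicate 6 Stc1 was 8.98-fold above Stc2, at 12.97 against 1.44.

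The protease and IGF genes on which stanniocalcins act showed 1 gene higher of 8 tested (12.5%), besides the stanniocalcins, and 0 lower. The threshold was an unadjusted p under 0.05, which 9.68% (higher) and 10.5% (lower) of all tested genes met. Without BRAFYAP replicate 6 the counts were 2 higher and 1 lower of 7. The higher gene in the fit of all 6 libraries was Igfbp4, the binding protein that PAPP-A cleaves. It was at 235, 588 and 137 scaled reads in YAP and at 9381, 47382 and 2890.5 in BRAFYAP. The BRAFYAP libraries all lay above the YAP libraries, with replicate 2 the highest and replicate 6 the lowest of them, unlike the order of Pthlh. The log2 fold change was 5.34 (SE 1.01, adjusted p = 0.0839) and 6.30 without BRAFYAP replicate 6. Pappa2, a second protease of this kind, was at 0, 3.67 and 0 in YAP and at 1.11, 27.5 and 720 in BRAFYAP, and Pappa itself was at 105, 50.1 and 25.7 against 178, 363 and 15.98. Neither passed the test (adjusted p = 0.275 and 0.65).

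**Figure D3:**
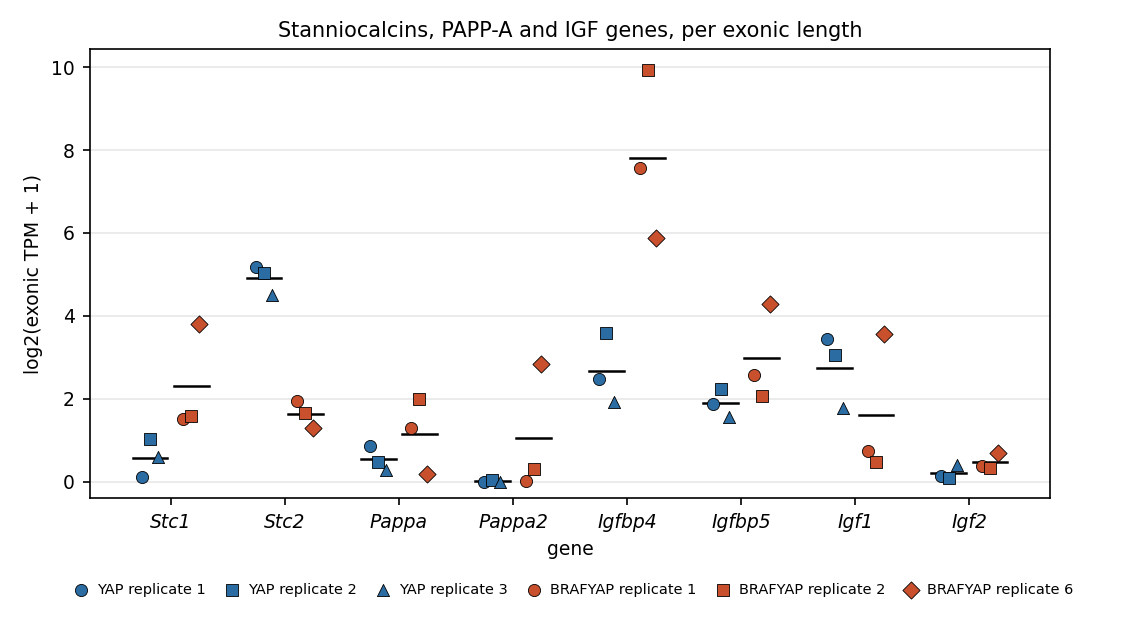
Log2(exonic TPM + 1) of the stanniocalcins, the PAPP-A proteases, IGF binding proteins and IGFs on the y axis, by library and with bars at group means. Stc2 is the higher stanniocalcin in YAP (21.5 to 34.97 exonic TPM), and Igfbp4 is higher in all 3 BRAFYAP libraries.

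Trpv6, at chr6:41620624-41636405 on the minus strand, encodes the channel of the set. Scaled reads were 219, 137 and 374 in YAP and 1998, 871 and 5652 in BRAFYAP. The groups did not overlap, and the lowest BRAFYAP library was 2.33-fold above the highest YAP library. Means were 243 ± 120 (SD, n = 3) and 2840 ± 2499, a ratio of 11.7. The log2 fold change was 3.25 (SE 0.70), 214th of 16834 from the highest, and 2.55 without BRAFYAP replicate 6. Its close relative Trpv5, which lies 15768 bases away, was nearly silent, with a mean of 0.171 scaled reads over the 6 libraries.

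The tested genes on the 3′ side of Trpv6 had higher fitted values in BRAFYAP too. Within 250 kb of it 5 genes were tested, of which 3 were higher at an unadjusted p under 0.05 (9.68% of all tested genes) and 4 did not overlap (11.6% of all), with a median log2 fold change of 3.68. Ephb6, a receptor of the ephrin family that ends 115 bases from Trpv6 on the other strand, was at 292, 1136 and 262 scaled reads in YAP and at 4872, 6661 and 5710 in BRAFYAP. Its log2 fold change was 3.68 (SE 0.57, adjusted p = 0.067), and it was 3.68 without BRAFYAP replicate 6 as well. Ephb6 was highest among YAP libraries in replicate 2, where Trpv6 was lowest, so their levels did not follow each other within the group. Reads were not stated to be counted by strand, and whether any pass between these adjoining genes was not tested.

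Trbc2 and Trbc1, the constant segments of the T-cell receptor beta locus, lie 72272 and 80743 bases from Trpv6. Trbc2 was at 100, 79.5 and 33.2 scaled reads in YAP and at 981, 2181 and 3542 in BRAFYAP, a log2 fold change of 4.91 (SE 0.60, adjusted p = 0.054). Trbc1 was higher by 3.50 (SE 0.89, adjusted p = 0.114). The T-cell gene Cd3e was at 43.2, 30.6 and 15.4 scaled reads in YAP and at 1.11, 0.785 and 31.1 in BRAFYAP. In each group the library with the most Trbc2 also had the most Cd3e. Between the groups their fitted values went opposite ways. The log2 fold change of Cd3e was -2.52, and -3.87 without BRAFYAP replicate 6, although its groups overlapped. The part of T cells was not tested. Prss2, a trypsinogen gene of the same locus, was at 0, 3.67 and 4.12 in YAP and at 4.43, 8.63 and 1433 in BRAFYAP, and Gm5771 had reads in BRAFYAP replicate 6 alone.

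**Figure D4:**
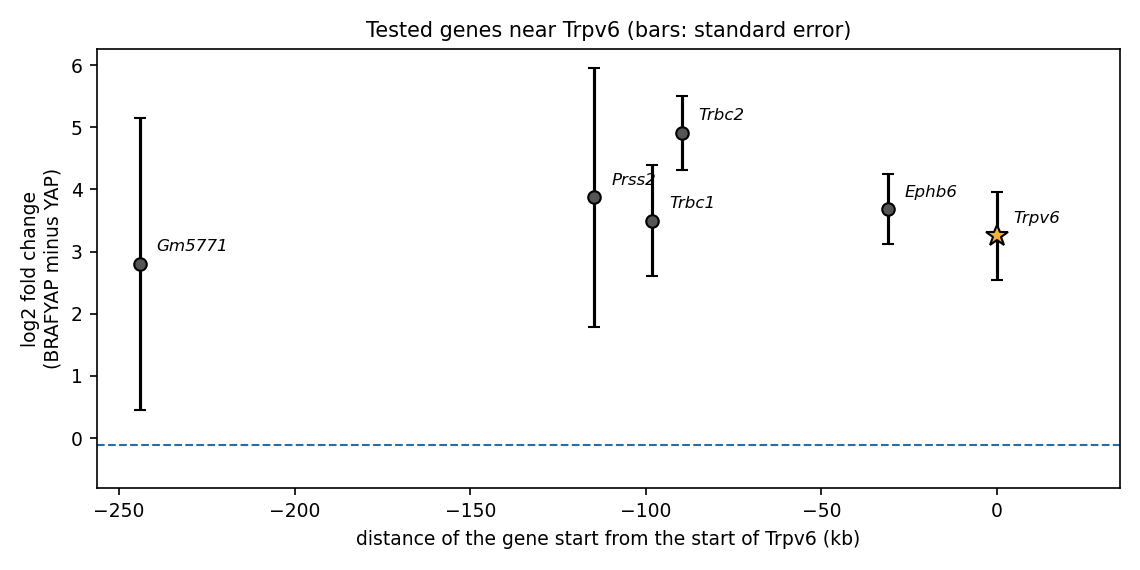
Log2 fold change (BRAFYAP minus YAP, bars for the standard error) of Trpv6 (star) and of the 5 tested genes within 250 kb, against the distance of their start from that of Trpv6 in kb. All 6 lie above the median of all tested genes (dashed line, -0.12), with wide bars for Prss2 and Gm5771, which rest on BRAFYAP replicate 6.

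Windows of 250 kb around the other members were counted in the same way. At an unadjusted p under 0.05, 1 of 5 tested genes was higher near Pthlh (Mrps35, a mitochondrial ribosomal protein, by 1.92 on the log2 scale), 0 of 2 near Stc1, and 1 of 4 near S100g (Syap1, by 1.93). Near Pth1r 2 of 11 were lower, Klhl18 by -1.48 and Ccdc12 by -0.65, and near Casr Eaf2 was higher by 1.32 and Cd86 lower by -1.65. No neighbor of Stc2 passed the minimum. Among all tested genes 9.68% were higher and 10.5% lower at that threshold, and the windows were not tested against one another.

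Genes listed as encoding partners of the TRPV6 protein had RNA in both groups. Of 7 tested 1 was higher (14.3%) and 0 lower at an unadjusted p under 0.05, where all tested genes gave 9.68% and 10.5%. Without BRAFYAP replicate 6 it was 0 in either direction. The median log2 fold change of the list was 0.33. Rab11a, a small GTPase of recycling endosomes, was at 776, 4761 and 2413 scaled reads in YAP and at 6254, 7079 and 9440.3 in BRAFYAP, a log2 fold change of 1.85 (SE 0.63, adjusted p = 0.173). Slc9a3r1, a scaffold of apical transporters, was at 685, 6399 and 3172 in YAP and at 7739, 5583 and 10379.9 in BRAFYAP, and the groups overlapped.

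Besides Trpv6, 21 TRP and store-operated entry genes were tested, and 4 were higher (19%) and 1 lower (4.76%) in BRAFYAP at an unadjusted p under 0.05, against 9.68% and 10.5% of all tested genes. Trpm2, an oxidant-activated channel, was the lower one, at 74.0, 66.0 and 38.1 scaled reads in YAP and at 0, 0 and 21.3 in BRAFYAP. The 4 higher genes, chosen after their values were seen, were Trpa1 by 3.10 on the log2 scale, the store-operated pore Orai1 by 1.89, the magnesium channel Trpm6 by 0.70 and the lysosomal channel Mcoln1, with adjusted p from 0.117 to 0.222. Mcoln1 was at 157, 768 and 326 in YAP and at 1277, 1432 and 1394 in BRAFYAP, with no overlap. Among 9 tested voltage-gated channel genes 0 were higher and 2 lower. Cacna1f was at 24.7, 17.1 and 24.7 in YAP and at 0, 4.71 and 0 in BRAFYAP, and Cacna1a was lower by -2.23 (adjusted p = 0.193).

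S100g, at chrX:162961992-162964599 on the minus strand, lies wholly within the span of Ctps2 on the other strand. Scaled reads of S100g were 28.8, 1.22 and 14.4 in YAP and 41.0, 95.8 and 288 in BRAFYAP. The groups did not overlap, although BRAFYAP replicate 1 was only 1.42-fold above YAP replicate 1. Means were 14.8 ± 13.8 (SD, n = 3) and 141 ± 130, a ratio of 9.55. The log2 fold change was 3.39 (SE 1.12) with a 95% interval from 0.76 to 6.02, and limma gave an adjusted p = 0.167, which did not pass. It was 2.66 without BRAFYAP replicate 6. Ctps2, whose span encloses it, was at 1531 to 1831 scaled reads in YAP and at 1761 to 2104 in BRAFYAP, a log2 fold change of 0.19 (SE 0.25).

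Of the other S100 genes 12 were tested, of which 1 was higher and 1 lower (8.33% each) at an unadjusted p under 0.05. The shares of all tested genes were 9.68% and 10.5%. The median log2 fold change of the list was 0.22, and without BRAFYAP replicate 6 the counts were 0 and 1. S100b was the lower one, at 138, 124 and 154 scaled reads in YAP and at 53.2, 24.3 and 43.5 in BRAFYAP, a log2 fold change of -1.82 (SE 0.44, adjusted p = 0.108). The pumps, exchangers and buffers move calcium out of the cytosol or hold it there. Of 22 tested, 4 were higher (18.2%) and 1 lower (4.55%), with a median of 0.15. The lower one was Itpr1, named after its values were seen, with a log2 fold change of -1.05 (SE 0.35, adjusted p = 0.167). Without BRAFYAP replicate 6 the counts were 3 and 2 of 21. Atp2a3, a calcium pump of the endoplasmic reticulum, was at 170, 690 and 171 in YAP and at 747, 469 and 2114 in BRAFYAP, and the muscle pump Atp2a1 was at 46.9, 51.8 and 256 against 38.6, 30.6 and 0.888. Neither passed the adjusted threshold.

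Casr, at chr16:36493696-36562141 on the minus strand, was at 2.06, 3.67 and 12.4 scaled reads in YAP and at 0, 0 and 16.9 in BRAFYAP. Means were 6.03 ± 5.54 (SD, n = 3) and 5.62 ± 9.74, below the minimum for the fit. Its only BRAFYAP library with reads was replicate 6, which also held most Pth and Chga. In YAP it was highest in replicate 3, whereas Pth (906) and Chga (1951) were highest in replicate 2. Other class C receptors gave 3 tested genes with 0 higher and 0 lower at an unadjusted p under 0.05, against 9.68% and 10.5% of all. Among them were the taste receptor subunit Tas1r3 (log2 fold change -0.70, SE 0.70) and the GABA receptor subunit Gabbr1 (0.60, SE 0.46).

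**Figure D5:**
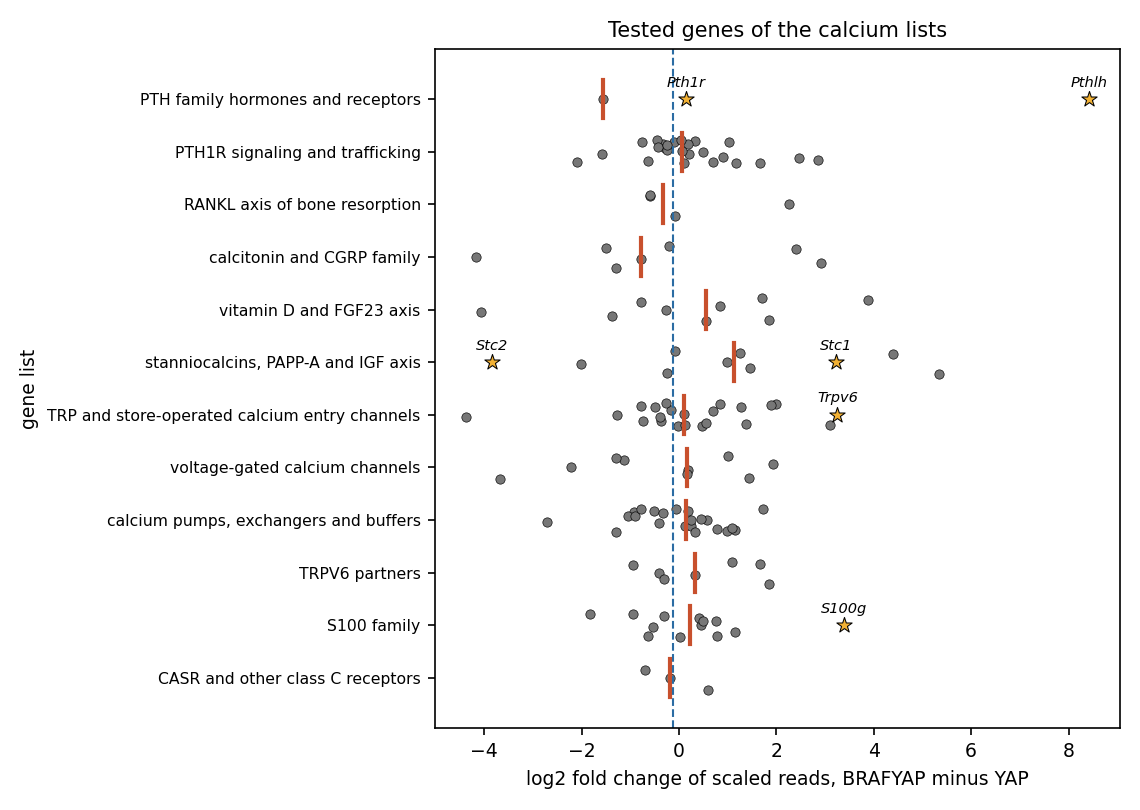
Log2 fold change (BRAFYAP minus YAP) of tested genes of 12 calcium gene lists, with stars for the members, gray points for the other genes, an orange bar at the median of the other genes and a dashed line at the median of all tested genes. The medians of the 3 longest lists lie between 0.06 and 0.15, while Pthlh is at 8.41 and Stc2 at -3.85.

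Over all 12 lists, 125 genes other than the members were tested. At an unadjusted p under 0.05 BRAFYAP was higher for 17 (13.6%) and lower for 8 (6.4%), against 9.68% and 10.5% of all tested genes, with a median log2 fold change of 0.06. Without BRAFYAP replicate 6 the counts were 14 higher (11.6%) and 15 lower (12.4%) of 121 tested, against 9.42% and 11.5% of all genes. No list gene passed an adjusted p of 0.05 in the fit of all 6 libraries.

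On exonic TPM the order of the members in YAP was led by Stc2 (29.5 ± 7.04, SD, n = 3), with Trpv6 (5.43 ± 2.92) and S100g (2.70 ± 2.47) next. Stc1 (0.543 ± 0.485), Pth1r (0.503 ± 0.199) and Pthlh (0.366 ± 0.279) followed, and Casr (0.113 ± 0.109) was last. In BRAFYAP Pthlh led (171 ± 183), before Trpv6 (64.2 ± 56.0), S100g (26.3 ± 23.8), Stc1 (5.60 ± 6.38), Stc2 (2.14 ± 0.690), Pth1r (0.628 ± 0.335) and Casr (0.106 ± 0.183). Neighbors in the order overlapped in their libraries, except Stc2 with Trpv6 in YAP and Stc2 with Pth1r in BRAFYAP. The spread between BRAFYAP libraries was 6.06-fold for Pthlh, 6.49-fold for Trpv6, 7.02-fold for Stc1 and 7.02-fold for S100g, each with replicate 6 highest.

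The 6 libraries share their 2 genotypes and the depth of each library. Across them, Pearson's r on the log2 scale was 0.89 between Pthlh and Trpv6 and -0.95 between Pthlh and Stc2. Pthlh, Trpv6 and Stc2 were picked for their difference between the genotypes. A strong r of these signs was therefore set by the choice, and nothing was read from it. The r of other genes with these members also includes the difference between the groups. The genes most like each member over the 6 libraries were Grem1 (r = 0.999), Pgm5 (0.995) and Trbc2 (0.991) for Pthlh, and Haus8 (0.997), Asf1b (0.996) and Ticam2 (0.995) for Stc2. They were Rere, Rbm11 and Aqp5 for Trpv6 (0.991 to 0.992), Tle2, Tlcd1 and Slc25a39 for Stc1 (0.995 to 0.996), Cds1, Guf1 and Arap2 for S100g (0.983), and Rita1, Fads1 and Slc41a3 for Pth1r (0.990 to 0.992). Grem1, a secreted antagonist of bone morphogenetic proteins, was at 534, 415 and 209 scaled reads in YAP and at 4099, 4886 and 10991 in BRAFYAP, so it had the order of the Pthlh levels in YAP and the same highest library in BRAFYAP.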

How the data were processed

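Total RNA of Kate-positive cells was amplified, sequenced as paired reads, aligned to mm10 with STAR 2.6.1d and quantified by the authors with the E/M model of Partek on Ensembl release 95 (names and versions from the submitters' processing notes and the methods of the study). The authors deposited TPM with 0.0001 added. The table holds 35027 genes, and 0 of its columns lacked a sample.

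Low values times the genomic span of the gene (GENCODE M21) lay within 0.05 of whole multiples of a library step for 71.7 to 76.0% of values under 200 reads, against 25.0 to 27.6% with the exonic length. The deposited TPM were therefore divided by span, and reads were recovered as (value minus 0.0001) times span over the step for 34645 genes at 1 locus (34709 symbols found). Scaled reads use a common step. Exonic TPM divide them by exonic length. E/M can split reads, PCR duplicates carry no molecular identifier, and strand was not stated, so genes that overlap can share reads.

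Groups came from the sample titles. TPM are not counts, so the groups were compared by limma 3.58.1 (R 4.3.3, mean-variance trend, two-sided) on log2(scaled reads + 1), with a mean of at least 10, no covariate and Benjamini-Hochberg adjustment over all tested genes. P-values measure only the spread between these libraries. The limma fit was tested on simulated counts, whereas the recovery of reads was not. Members and lists were chosen with earlier results of these data known. Named genes are the members, the top 2 per list by size of change, tested genes within 250 kb of a member and the 3 most correlated genes per member. Alternatives were another pseudocount, no filter, deposited or exonic TPM, quantile or median-ratio scaling, array weights, a replicate block and each library left out.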

Additional observations from a re-analysis of the deposited data

How the results depend on the processing

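No member changed direction under any alternative run except Pth1r, and Casr was below the minimum for a fit. Genes with an adjusted p under 0.05 numbered 0 in the fit reported, 45 with a pseudocount of 10, 18 on deposited TPM, 62 on exonic TPM, 62 after quantile normalization and 4650 with array weights, and from 0 to 142 with each library left out in turn (3 without YAP replicate 2, 142 without BRAFYAP replicate 6). Genes with an unadjusted p under 0.05 numbered 3404, and 1455 on deposited TPM, 6915 with array weights and 2285 to 3839 with a library left out. On deposited TPM, which carry span in the pseudocount, log2 fold changes were 2.80 for Pthlh, -2.06 for Stc2 and 1.94 for Trpv6. On exonic TPM they were 6.46 for Pthlh and -3.28 for Stc2. With array weights they were -3.22 for Stc2, 2.06 for Stc1 (adjusted p = 0.0256) and 2.21 for S100g (adjusted p = 0.0395), both past the threshold. Adjusted p ranged from 0.0256 to 0.388 for Stc1 and from 0.0395 to 0.413 for S100g over the alternatives. The cause was not tested.

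With a library left out, log2 fold changes ranged from 7.55 to 8.91 for Pthlh, from -4.09 to -3.60 for Stc2, from 2.55 to 3.90 for Trpv6, from 2.23 to 4.00 for Stc1 and from 2.30 to 4.17 for S100g. For Pth1r they ranged from -0.13 to 0.68, with -0.04 without YAP replicate 1 and -0.13 without BRAFYAP replicate 1 or 2. Where scaled reads change to TPM, Pth1r fell below the minimum mean, as did Stc1 and S100g on deposited TPM, and these were not run.

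The replicate numbers 1 and 2, shared by both groups, did not pair the libraries (r of deviations -0.03 and 0.05). With the number as a block, Pthlh was at 6.75, the count with an adjusted p under 0.05 was 0 and that with an unadjusted p under 0.05 was 2532. Depth limits the YAP value of Pthlh and all values of Casr.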
